A study of Mus musculus with 6 samples.

Results

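Expression of 10 Wnt pathway genes was followed in mouse embryonic stem cells (ESCs) and in the embryoid bodies (EBs) made from them: the ligands *Wnt3* and *Wnt5a*, the feedback and antagonist genes *Axin2*, *Nkd1* and *Dkk1*, the R-spondin receptor gene *Lgr5*, the transcription factors of the pathway *Lef1* and *Tcf7*, and the target genes *Sp5* and *Cdx1*. They were chosen by name, as Wnt ligands and direct targets of beta-catenin, and each matched 1 of the 21639 gene entries of the RNA-Seq table. The study asked how the acidic patch of the histone variant H2A.Z, a cluster of negatively charged residues on the nucleosome surface, takes part in gene regulation as ESCs differentiate. Poly(A) RNA was sequenced from 3 ESC lines at Day0 (D0, ESCs) and Day3 (D3, EBs), with 1 library for each of the 6 conditions. Levels are in RPKM, the reads of a gene per kilobase of transcript and per megaread mapped, so levels of different genes can be compared per length.

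The lines are labelled H2AZ WT, H2AZ KD and H2AZ-AP3 variant, all of strain V6.5 (129SvJaexC57BL/6), and the transgenes are said to have been placed in KH2 ESCs. Wild-type H2A.Z or the AP3 variant, in which 3 acidic patch residues are replaced by those of H2A, was fused to YFP, driven from a doxycycline-inducible CMV promoter on a lentivirus, induced with 1 µg/ml doxycycline and enriched by sorting YFP positive cells. Short hairpins against the 3′ UTR of the endogenous gene were put into the WT and AP3 transgenic lines as well. By this description the WT and AP3 groups share the hairpin and the drug, but the titles of the libraries give neither. The study describes the knockdown hairpins as put into the inducible lines, and the labels do not give the state of the transgene in the libraries labelled KD. ESCs were grown with LIF on feeder fibroblasts and passed once without feeders before harvest, and EBs formed on non-adherent plates without LIF. *H2afz*, which encodes H2A.Z, had a level of 279, 343 and 304 RPKM in the WT, KD and AP3 libraries of D0, followed by 258, 236 and 394 RPKM on D3. It was therefore not lower than WT in the library labelled KD at D0, and a transgene's coding sequence cannot be told apart from the endogenous gene in such a value. The words KD-labelled and labelled KD are used for these libraries throughout.

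The table gives no read numbers. Depths estimated from the steps between its lowest values lay between 16.9 and 26.7 M reads (M, megareads), and the deepest library was AP3 at D0. At these depths 1 read on a 2 kb transcript is worth 0.0187 to 0.0297 RPKM. Reads behind each value were estimated from these depths, and each ratio below carries a 95% exact interval for counting error only. With 1 library per condition no difference has a replicate check, and differences between cultures, sorts or library preparations are not covered by any interval. A ratio past 1.5-fold is called a change, in which case the gene is said to be higher or lower past the threshold.

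Wnt ligands bind Frizzled receptors and LRP coreceptors, which stops the destruction complex from breaking down beta-catenin. Beta-catenin then enters the nucleus and acts with TCF/LEF proteins on target genes, several of which (*Axin2*, *Nkd1*, *Dkk1*) dampen the signal again. In ESC culture Wnt signalling is known to help hold the undifferentiated state, and in the early embryo it is needed to form the primitive streak.

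TCF/LEF proteins are known to bind short strings that begin with CTTTG, and the promoters of *Sp5* and *Dkk1* are shown here because each held 2 such strings while their levels moved in opposite directions between ESCs and EBs. Promoter windows from RefSeq (250 bases before to 50 bases after an annotated start, GRCm38.p6, each found once in mm9) were given for 7 of the 10 genes, in 11 windows. Windows for *Wnt5a*, *Cdx1* and *Lgr5* were not used here. Both strands were searched for CTTTGAT (found in 3.73% of the 32851 RefSeq windows of this length), for CTTTGAA (in 5.14%), for CTTTGTT (in 5.85%) and for CTTTGTA (in 3.63%). These 4 strings differ only in their last letters, so a position can match no more than 1 of them. Capitals mark the match in each stretch, which is written 5′ to 3′ on the strand of the gene.
*Sp5*, chr2:70312747-70312775 (mm9, + strand): ttcctagagatAACAAAGacactttgtca
*Sp5*, chr2:70312865-70312893 (mm9, + strand): ggcaaggccccCTTTGATcaggaaaatcc
*Dkk1*, chr19:30624086-30624114 (mm9, - strand): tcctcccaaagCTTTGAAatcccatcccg
*Dkk1*, chr19:30624067-30624095 (mm9, - strand): tcccatcccggCTTTGTTgtcttccctga
In *Sp5* the matches began 222 and 104 bases before the start, the farther one as CTTTGTT on the opposite strand. In *Dkk1* they began 117 and 98 bases before the start, and the printed stretches overlap. *Wnt3* held 1 CTTTGTT and *Lef1* 1 CTTTGTA at an internal start, and the windows of *Axin2*, *Tcf7* and *Nkd1* held none of the 4. In all, 4 of 11 windows had a match, against 16.9% of all windows. A match describes the letters of a window and is not a measured binding site.

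The 10 genes covered a wide range of levels. *Tcf7* was the most abundant in every library, at 13.6 to 26.0 RPKM, and in WT ESCs it lay above 80.7% of all entries. *Wnt3* and *Lgr5* were the least abundant over the 6 libraries, with means of 0.237 and 0.252 RPKM, and neither reached 1 RPKM in any library. *Axin2* and *Nkd1* were the steadiest, since their highest library exceeded their lowest by 1.40-fold and 1.54-fold. *Lef1*, *Sp5*, *Cdx1* and *Dkk1* were the most variable, with ratios of highest to lowest library of 17.2, 16.7, 14.4 and 9.58.

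**Figure D1:**
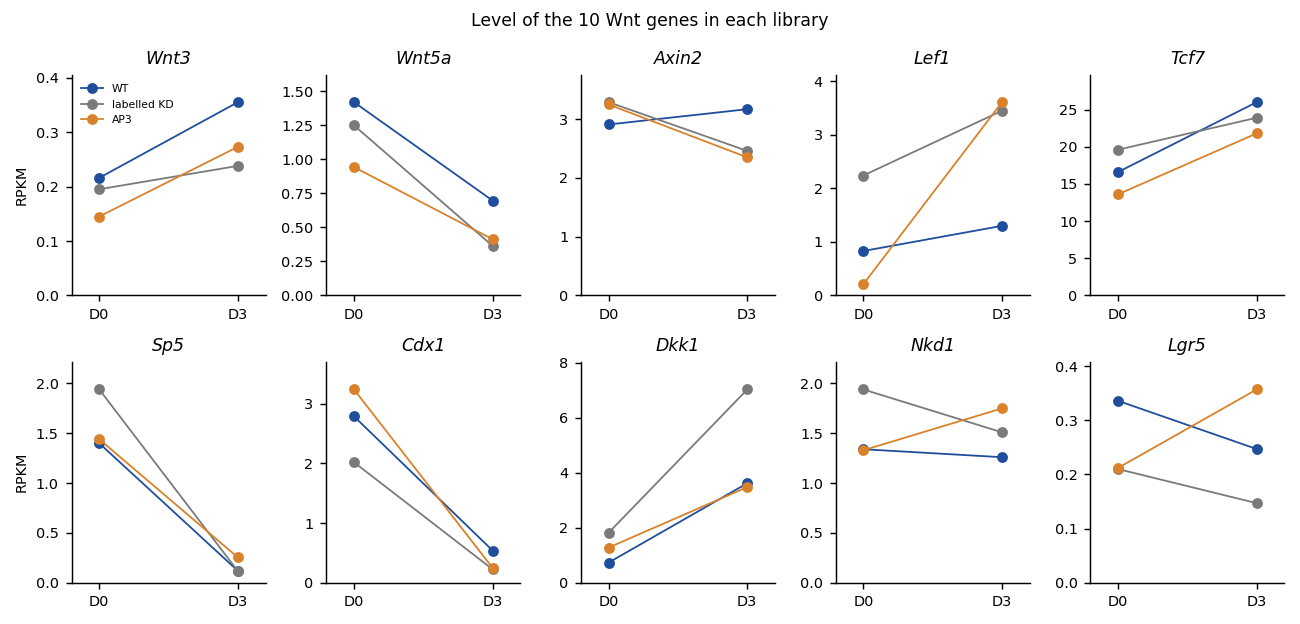
Level of each of the 10 Wnt genes in RPKM (linear vertical axis from 0, a different scale in each panel) at D0 and D3, with 1 point per library and a line joining the 2 libraries of each ESC line. *Sp5* and *Cdx1* fall in all 3 lines, *Dkk1* climbs in all 3, and *Lef1* in the AP3 line runs from the lowest of the 6 points (0.210 RPKM) to the highest (3.61 RPKM).

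The change from ESCs to EBs was compared within each line. *Dkk1*, the secreted antagonist that blocks LRP coreceptors, was higher at D3 past the threshold in all 3 lines, and *Lef1* was as well. *Wnt5a*, *Sp5* and *Cdx1* were lower past the threshold in all 3 lines, by 2.04-fold to 16.6-fold, of which *Wnt5a* in WT and AP3 drops under the threshold with a pseudocount of 1 RPKM. *Axin2* and *Nkd1*, the usual readouts of feedback, stayed within 1.5-fold in every line. In bulk RNA, fewer cells of a type and less RNA per cell cannot be told apart, and this holds for every level reported here.

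In the WT line 7 of the 10 genes passed the threshold, 4 higher and 3 lower, where 30.7% of all entries did (14.1% higher, 16.5% lower). The KD-labelled line had 5, with 2 higher and 3 lower, against 30.2% of all entries (14.0% and 16.2%). For AP3 the number was 8, with 5 higher and 3 lower, against 31.0% (14.7% and 16.3%). The genes' median log2 change was 0.01 in WT, -0.39 in the KD-labelled line and 0.53 in AP3, and that of all entries was 0.0 in each. Taking the 3 lines side by side, the D3 and D0 libraries did not overlap for 6 genes, of which *Wnt3*, *Tcf7* and *Dkk1* were higher at D3 and *Wnt5a*, *Sp5* and *Cdx1* lower. The same held for 24.3% of all entries (12.7% higher, 11.6% lower) and for 33.3% of the 12702 entries with at least 1 RPKM in 1 library. The 3 lines are not replicates of one another, and no test was made over them.

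**Figure D2:**
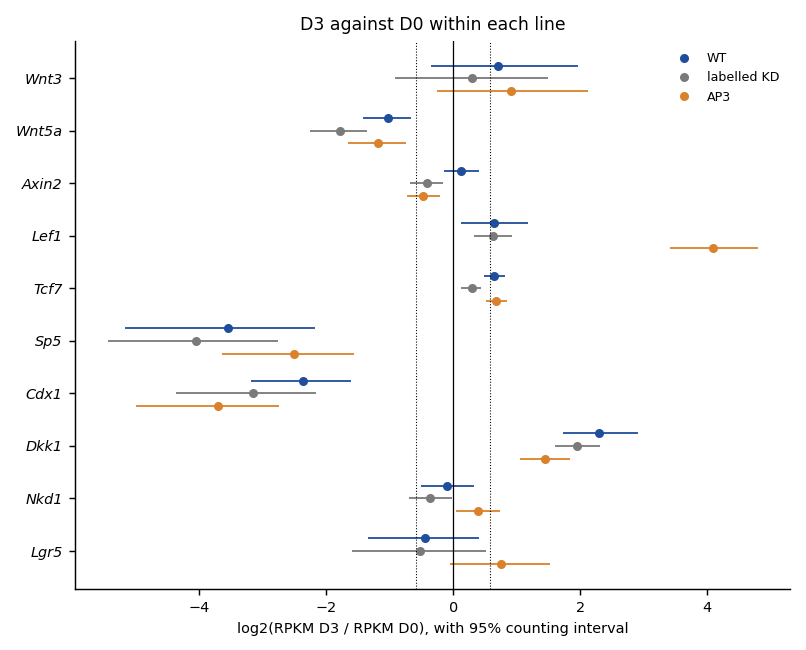
Log2 ratio of RPKM at D3 over D0 for each gene, with 1 point per ESC line, bars for the 95% exact counting interval, a solid line at no change and dotted lines at 1.5-fold. The points of *Sp5*, *Cdx1* and *Wnt5a* lie left of the dotted line and those of *Dkk1* right of it in all 3 lines, while the AP3 point of *Lef1* stands apart at 4.09.

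Among ligands, *Wnt3* (chr11:103635489-103679335, + strand, 5 exons), which signals through beta-catenin and is needed for the primitive streak, stood at 0.216, 0.195 and 0.145 RPKM in WT, KD-labelled and AP3 ESCs and at 0.355, 0.238 and 0.273 RPKM in the EBs. All 3 EB values lay above all 3 ESC values, but only an estimated 11 to 21 reads stood behind each. Its D3 to D0 ratio was 1.64-fold in WT (95% counting interval, 0.783 to 3.90) and 1.87-fold in AP3 (0.834 to 4.35), so these intervals span no change although the ratios passed the threshold. In the KD-labelled line the ratio was 1.22-fold (0.530 to 2.83). None of the ratios between lines passed 1.5-fold for *Wnt3*, and a difference was not detectable at this depth.

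*Wnt5a* (chr14:29318659-29338620, + strand), a ligand that mainly signals without beta-catenin through receptors such as ROR2, measured 1.42, 1.25 and 0.943 RPKM in WT, KD-labelled and AP3 ESCs. In EBs it measured 0.697, 0.364 and 0.413 RPKM, below every ESC library. The level at D3 was 2.04-fold lower in WT (1.58 to 2.67), 3.44-fold lower in the KD-labelled line (2.55 to 4.77) and 2.28-fold lower in AP3 (1.68 to 3.15). WT held the most *Wnt5a* on each day. AP3 was 1.51-fold lower than WT at D0 (1.21 to 1.87), just past the threshold, and 1.69-fold lower at D3 (1.19 to 2.39). The KD-labelled EBs were 1.91-fold lower than WT EBs (1.36 to 2.70), whereas the KD-labelled and WT ESCs differed by 1.13-fold with an interval that spans no change (0.905 to 1.42). With a pseudocount of 1 RPKM none of these differences from WT passed the threshold. That of AP3 at D0 also drops under it with a pseudocount of 0.1 RPKM.

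*Wnt5a* is also expressed in fibroblasts, and most markers of fibroblasts, which fed the ESCs until the last passage, were lower at D3 as it was. All 10 of these markers were found, and their summed level was 35.8, 29.4 and 60.0 RPKM in WT, KD-labelled and AP3 ESCs and 17.8, 11.3 and 13.8 RPKM in EBs. Of the 10, 6, 8 and 8 were lower past the threshold at D3 in WT, KD-labelled and AP3 cells, beside 16.5%, 16.2% and 16.3% of all entries. In each line 1 was higher, beside 14.1%, 14.0% and 14.7%. The higher marker, *Thy1*, went from 1.74, 2.42 and 1.74 RPKM at D0 to 9.19, 5.48 and 3.56 RPKM at D3. *Col1a2*, the most abundant of the list in ESCs, was at 12.9, 11.8 and 22.5 RPKM at D0 and 1.30, 0.591 and 2.36 RPKM at D3. *Lum* and *Postn*, which enter some of these counts, were between 0 and 0.333 RPKM throughout. Within D0 the sum was highest in AP3 ESCs, where *Wnt5a* was lowest, whereas between WT and KD-labelled ESCs both were lower in the KD-labelled line. The part of fibroblasts in the fall of *Wnt5a* was not tested.

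*Dkk1* (chr19:30620374-30623986, - strand, 4 exons) stood at 0.734, 1.82 and 1.28 RPKM in WT, KD-labelled and AP3 ESCs and at 3.62, 7.03 and 3.48 RPKM in the EBs. Each EB library lay above each ESC library, and the KD-labelled line held the most on both days. The increase was 4.92-fold in WT (3.32 to 7.53), 3.86-fold in the KD-labelled line (3.03 to 5.00) and 2.71-fold in AP3 (2.07 to 3.58). Against WT, the KD-labelled cells were 2.48-fold higher at D0 (1.60 to 3.91) and 1.94-fold higher at D3 (1.62 to 2.35). AP3 was 1.75-fold higher than WT at D0 (1.14 to 2.74), which drops under the threshold with a pseudocount of 1 RPKM. At D3 the AP3 to WT ratio was 0.961 (0.768 to 1.20). The order of *Dkk1* in EBs was thus KD-labelled first, with WT and AP3 behind it and not distinguishable from each other by their counts.

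*Dkk1* is known from the anterior visceral endoderm of the embryo, and all 8 primitive and visceral endoderm markers were found in the table. Their summed level was 34.1, 44.2 and 114 RPKM in WT, KD-labelled and AP3 ESCs and 146, 315 and 169 RPKM in the EBs, so that the KD-labelled EBs held the most endoderm marker RNA as well as the most *Dkk1*. At D3 the markers were higher past the threshold for 8 of 8 in WT, 8 of 8 in the KD-labelled line and 4 of 8 in AP3. The shares of all entries were 14.1%, 14.0% and 14.7%. In KD-labelled EBs 6 of 8 were higher than in WT EBs, beside 9.41% of all entries. *Dab2*, a marker of extraembryonic endoderm, was at 41.8, 129 and 70.3 RPKM in WT, KD-labelled and AP3 EBs. It was the only 1 of the 8 that was higher in AP3 than in WT EBs past the threshold, and 2 were lower. Of all entries, 10.4% were higher and 11.7% lower. In ESCs the orders differed, since the marker sum was highest in AP3 and *Dkk1* in the KD-labelled line. The part of endoderm cells in the *Dkk1* values was not tested.

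*Nkd1* (chr8:91045243-91118785, + strand), whose product binds Dishevelled and restrains the signal from inside the cell, was at 1.34, 1.94 and 1.33 RPKM in WT, KD-labelled and AP3 ESCs and at 1.26, 1.51 and 1.75 RPKM in EBs. None of its 9 ratios passed 1.5-fold, and ESC and EB values overlapped. The closest to the threshold were the KD-labelled ESCs, 1.44-fold above WT (1.11 to 1.87) and 1.45-fold above AP3 (1.15 to 1.83). From D0 to D3 *Nkd1* was 1.31-fold higher in AP3 (1.03 to 1.65) and 1.28-fold lower in the KD-labelled line (1.01 to 1.62). In WT the D3 to D0 ratio was 0.936 (0.703 to 1.25).

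*Axin2* (chr11:108781663-108812095, + strand, 11 exons), the inducible scaffold of the destruction complex and the most widely used target of beta-catenin, stood at 2.91, 3.29 and 3.25 RPKM in WT, KD-labelled and AP3 ESCs. In EBs it stood at 3.17, 2.46 and 2.35 RPKM. These 6 values, each resting on an estimated 190 to 370 reads, were the narrowest range among the 10 genes. The WT line showed no change with time beyond counting error, with a D3 to D0 ratio of 1.09 (0.905 to 1.32). *Axin2* was 1.34-fold lower at D3 in the KD-labelled line (1.11 to 1.60) and 1.38-fold lower in AP3 (1.16 to 1.66), under the threshold. At D3 it was 1.29-fold lower than WT in the KD-labelled line (1.08 to 1.55) and 1.35-fold lower in AP3 (1.12 to 1.64), and these comparisons use the same WT library.

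The 3 genes whose log2 levels followed *Axin2* most closely over the 6 libraries, among 11841 genes averaging 1 RPKM or more, were *Rfc1* (Pearson r 0.99), *Mir20a* (0.97) and *Jdp2* (0.968). A total of 42 genes had an r over 0.9. These are the highest of many correlations over only 6 libraries, some of which would be high without any relation to *Axin2*, and no test was made. The measure ignores the size of a change. *Rfc1*, a subunit of the clamp loader used in DNA replication, only moved between 38.0 and 39.7 RPKM, and the entry of the microRNA gene *Mir20a* was listed at 0 in KD-labelled and AP3 EBs. *Jdp2*, a bZIP transcription factor, stood at 4.18, 5.10 and 6.42 RPKM in WT, KD-labelled and AP3 ESCs and at 5.62, 2.78 and 2.71 RPKM in EBs.

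*Lgr5* (chr10:114887370-115024836, - strand, 18 exons) encodes a receptor for R-spondins, which strengthen Wnt signals, and marks stem cells of the intestine. It was at 0.336, 0.210 and 0.212 RPKM in WT, KD-labelled and AP3 ESCs and at 0.247, 0.147 and 0.357 RPKM in EBs, from an estimated 16 to 32 reads per library. ESC and EB values overlapped. Of the 5 ratios that passed 1.5-fold, 4 had intervals that span no change, namely AP3 and KD-labelled against WT at D0, KD-labelled against WT at D3, and D3 against D0 in AP3. The other one was the difference between AP3 and KD-labelled EBs, 2.43-fold higher in AP3 (1.28 to 4.69). It drops under the threshold with a pseudocount of 1 RPKM. The sister receptor gene *Lgr4*, by contrast, was at 18.1 to 27.8 RPKM in the 6 libraries.

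*Lef1* (chr3:130813389-130926249, + strand, 12 exons), a DNA-binding partner of beta-catenin and itself a target of the pathway, had the widest range of the 10 genes. In ESCs it stood at 0.830 RPKM in WT, 2.24 RPKM in the KD-labelled line and 0.210 RPKM in AP3, the last from an estimated 20 reads. In EBs it stood at 1.30, 3.45 and 3.61 RPKM. The AP3 line thus held the lowest value of the 6 at D0 and the highest at D3, while the WT and KD-labelled lines kept their order.

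The D3 to D0 ratio of *Lef1* was 17.1-fold in AP3 (10.6 to 27.9), against 1.56-fold in WT (1.09 to 2.27) and 1.54-fold in the KD-labelled line (1.25 to 1.91), both of which drop under the threshold with a pseudocount of 1 RPKM, and that of the KD-labelled line also when ratios are centred on their median. The WT interval reaches no change when reads are estimated with the shortest coding transcript, on the log2 scale -0.01 to 1.31. AP3 ESCs had 3.94-fold less *Lef1* than WT ESCs (2.27 to 6.91) and 10.6-fold less than the KD-labelled ESCs (6.49 to 17.6). At D3 the direction against WT turned, and AP3 EBs had 2.78-fold more (2.15 to 3.57). The KD-labelled line was above WT on both days, by 2.70-fold at D0 (1.92 to 3.79) and 2.66-fold at D3 (2.07 to 3.41), and AP3 and KD-labelled EBs were alike within counting error, with a ratio of 1.04 (0.873 to 1.25).

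The epiblast markers *Fgf5* and *Otx2* showed the same order of lines at D0 as *Lef1*. *Fgf5* was at 0.539, 1.11 and 0.106 RPKM in WT, KD-labelled and AP3 ESCs and *Otx2* at 4.22, 5.14 and 1.37 RPKM. Summed over all 4 epiblast markers the level was 43.0, 48.8 and 35.4 RPKM in ESCs and 108, 136 and 138 RPKM in EBs. At D3 the 4 were split. *Dnmt3b* (71.2, 96.0 and 105 RPKM in WT, KD-labelled and AP3 EBs) and *Pou3f1* (7.26, 7.65 and 10.4 RPKM) had the order of *Lef1*, highest in AP3, whereas *Fgf5* (7.34, 7.45 and 5.51 RPKM) and *Otx2* (22.3, 24.6 and 17.5 RPKM) were lowest there. The 7 pluripotency markers that were found summed to 2460 to 2598 RPKM in ESCs and to 1664 to 2066 RPKM in EBs. Of these, 2, 3 and 2 were lower past the threshold at D3 in WT, KD-labelled and AP3 cells, beside 16.5%, 16.2% and 16.3% of all entries. *Klf4* was at 121, 131 and 65.9 RPKM in WT, KD-labelled and AP3 ESCs and at 17.4, 17.1 and 14.9 RPKM in EBs. In AP3 ESCs 2 of the 7, *Klf4* and *Sox2*, were lower than in WT past the threshold and 0 were higher, beside 13.9% and 11.1% of all entries. *Pou5f1* was at 421, 413 and 540 RPKM in WT, KD-labelled and AP3 ESCs. The part of the mix of cell states in the *Lef1* values was not tested.

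*Tcf7* (chr11:52066106-52095752, - strand), which encodes the related factor TCF1, was at 16.6, 19.6 and 13.6 RPKM in WT, KD-labelled and AP3 ESCs and at 26.0, 23.9 and 21.8 RPKM in EBs. Its EB libraries all lay above its ESC libraries. Estimated reads of 442 to 865 per library made its ratios the most precise of the 10 genes. At D3 *Tcf7* was 1.57-fold higher in WT (1.39 to 1.77) and 1.60-fold higher in AP3 (1.43 to 1.79), and 1.22-fold higher in the KD-labelled line (1.09 to 1.36), which is under the threshold. AP3 was the lowest of the 3 lines on each day, 1.22-fold below WT at D0 (1.07 to 1.38) and 1.19-fold below at D3 (1.07 to 1.33), under the threshold on both. *Lef1* and *Tcf7* therefore differed in AP3 EBs, where *Lef1* lay above WT and *Tcf7* below it.

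Among targets, *Sp5* (chr2:70312980-70315783, + strand, 2 exons), a zinc finger factor of the Sp family that responds directly to beta-catenin, was at 1.40, 1.94 and 1.44 RPKM in WT, KD-labelled and AP3 ESCs and at 0.119, 0.116 and 0.254 RPKM in EBs. Every EB library lay far below every ESC library, with an estimated 5 to 10 reads left against 50 to 81. *Sp5* was 11.7-fold lower at D3 in WT (4.51 to 36.1), 16.6-fold lower in the KD-labelled line (6.76 to 43.5) and 5.65-fold lower in AP3 (2.97 to 12.4). The AP3 EBs had 2.12-fold more *Sp5* than WT EBs, but with so few reads the interval spans no change (0.621 to 7.43). In ESCs none of the ratios between lines passed 1.5-fold.

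*Cdx1* (chr18:61178517-61195853, - strand, 3 exons), a caudal-type homeobox gene that patterns the body axis and responds to Wnt and retinoic acid, was at 2.79, 2.02 and 3.24 RPKM in WT, KD-labelled and AP3 ESCs. At D3 it was at 0.540, 0.225 and 0.249 RPKM, again without overlap. The drop was 5.16-fold in WT (3.04 to 9.06), 8.92-fold in the KD-labelled line (4.46 to 20.6) and 13.0-fold in AP3 (6.67 to 31.8). WT EBs kept the most *Cdx1*, 2.39-fold more than the KD-labelled EBs (1.03 to 6.09) and 2.16-fold more than AP3 EBs, the latter with an interval that spans no change (0.934 to 6.00). In ESCs AP3 had 1.61-fold more than the KD-labelled line (1.18 to 2.18). All of these *Cdx1* differences between lines drop under the threshold with a pseudocount of 1 RPKM. Markers of the primitive streak and mesoderm, where Wnt targets are known to be active in the embryo, summed over 8 genes to 3.16, 3.50 and 2.73 RPKM in WT, KD-labelled and AP3 ESCs and to 5.00, 4.86 and 4.01 RPKM in EBs. The sum was thus higher at D3 in each line, and past the threshold 3, 2 and 3 of the 8 were higher and 0, 1 and 2 lower. Of all entries, 14.1%, 14.0% and 14.7% were higher and 16.5%, 16.2% and 16.3% lower. *Eomes* was at 1.07, 1.33 and 1.14 RPKM at D0 and 1.86, 2.39 and 1.72 RPKM at D3, and *T* and *Mixl1* were under 1 RPKM in every library.

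**Figure D3:**
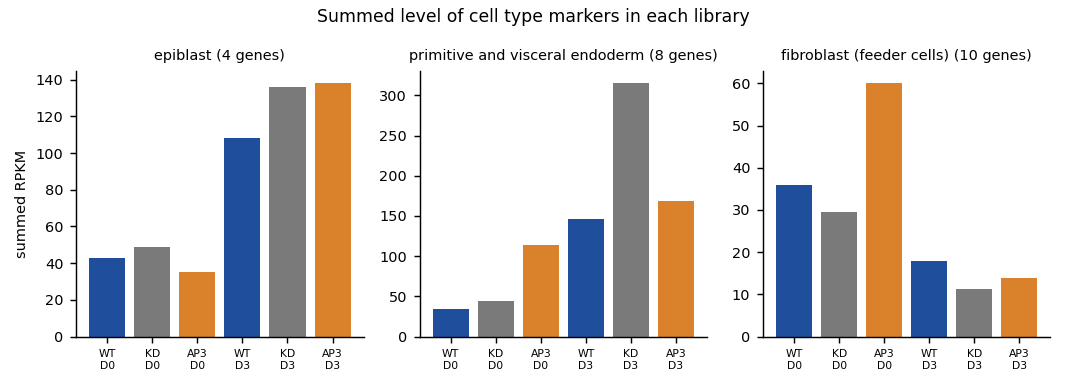
Summed RPKM of epiblast, primitive and visceral endoderm, and fibroblast markers in each of the 6 libraries (bars from 0, 1 library each, no error bar; KD stands for the libraries labelled KD). Endoderm markers peak in KD-labelled EBs at 315 RPKM, and fibroblast markers peak in AP3 ESCs at 60.0 RPKM.

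The lines were then compared on each day. *Lef1* gave the largest differences with intervals away from no change on each day, and at D0 *Dkk1* came next. At D3 *Lgr5* between AP3 and KD-labelled EBs (2.43-fold) and *Cdx1* between WT and KD-labelled EBs (2.39-fold) lay above every *Dkk1* difference. Both rest on few reads. *Wnt5a* was lower than WT in AP3 on both days and in KD-labelled EBs, but under the threshold with a pseudocount of 1 RPKM. AP3 differed from WT past the threshold for 4 genes at D0, where 25.0% of all entries did (11.1% higher, 13.9% lower), with *Dkk1* higher and *Wnt5a*, *Lef1* and *Lgr5* lower. At D3 the number was also 4, against 22.1% of all entries (10.4% higher, 11.7% lower), with *Lef1* and *Sp5* higher and *Wnt5a* and *Cdx1* lower. The median log2 difference of the 10 genes was -0.15 at D0 and -0.16 at D3, beside 0.0 for all entries.

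The KD-labelled line differed from WT for 3 genes at D0, against 19.7% of all entries (8.96% higher, 10.7% lower), with *Lef1* and *Dkk1* higher and *Lgr5* lower. For D3 the number was 5, against 20.7% (9.41% higher, 11.3% lower), with *Lef1* and *Dkk1* higher and *Wnt5a*, *Cdx1* and *Lgr5* lower. The median log2 differences were 0.21 and -0.24. The comparisons of AP3 and of the KD-labelled line with WT share the WT library of that day, so a deviation of that library enters both.

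AP3 and the KD-labelled line, compared without WT, differed for 2 genes at D0, against 27.0% of all entries (13.5% higher and 13.5% lower in AP3), with *Cdx1* higher in AP3 and *Lef1* lower. At D3 they differed for 3 genes, against 22.7% (11.6% higher, 11.1% lower), with *Sp5* and *Lgr5* higher in AP3 and *Dkk1* lower. AP3 EBs had 2.02-fold less *Dkk1* than the KD-labelled EBs (1.68 to 2.45). Median log2 differences of the 10 genes were -0.42 at D0 and 0.16 at D3.

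**Figure D4:**
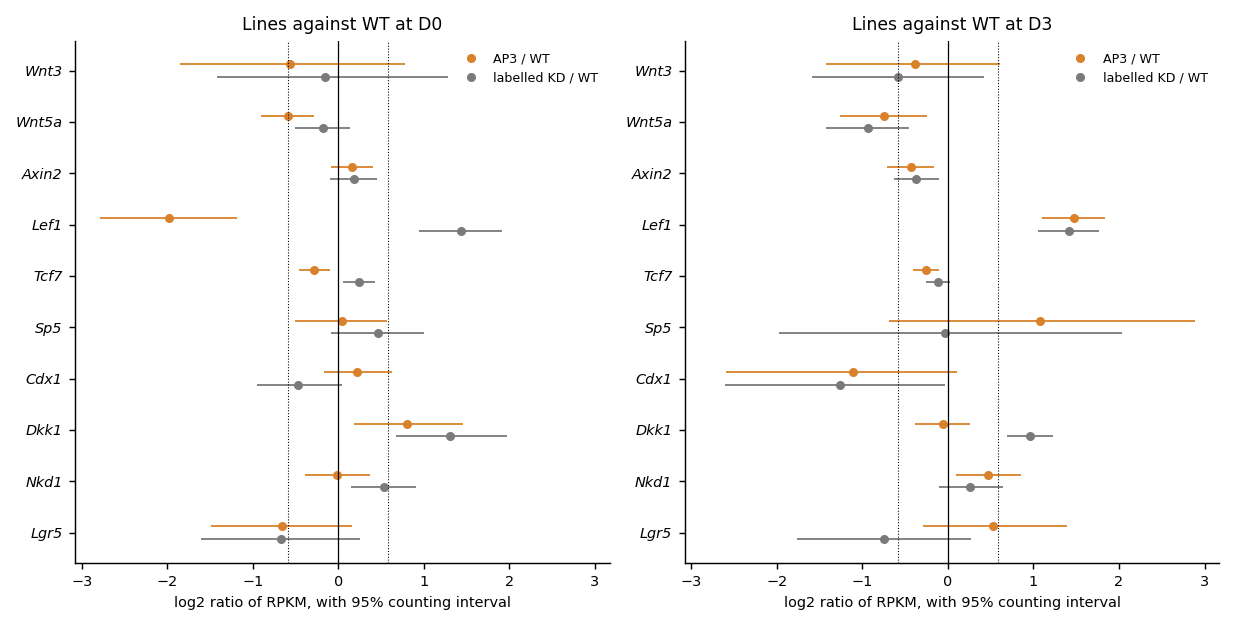
Log2 ratio of RPKM over WT of the same day for AP3 and the line labelled KD, at D0 (left) and D3 (right), with bars for the 95% exact counting interval, a solid line at no change and dotted lines at 1.5-fold. The AP3 point of *Lef1* moves from -1.98 at D0 to 1.47 at D3, and the wide bars at D3 belong to *Sp5*, *Cdx1*, *Lgr5* and *Wnt3*, the genes with few reads.

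Across all 9 comparisons, 41 of 90 ratios passed the threshold, where 19.7% to 31.0% of all entries did in a single comparison. The comparisons share libraries, so a deviation of a single library enters several of these ratios. For 32 of the 41 the counting interval stayed away from no change, and for 9, all of *Wnt3*, *Sp5*, *Cdx1* or *Lgr5*, it did not. Adding 1 RPKM to every value before taking ratios, which damps genes at low levels, left 21 of the 41 past the threshold, beside 2.16% to 10.3% of all entries in a comparison. *Dkk1* and *Lef1* in the KD-labelled line against WT on both days, *Lef1* in every comparison of AP3 with WT, and the D3 to D0 changes of *Sp5*, *Cdx1* and *Dkk1* in all 3 lines were among those 21.

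Leaving out genes under 1 RPKM in both libraries of a comparison kept 5 to 8 of the 10. Between the days, 6 of 8 passed the threshold in WT, 5 of 8 in the KD-labelled line and 5 of 7 in AP3, beside 23.0%, 22.3% and 24.3% of all entries kept. AP3 against WT gave 2 of 7 at D0 and 1 of 5 at D3, beside 13.9% and 10.2%, and the gene at D3 was *Lef1*. KD-labelled against WT gave 2 of 8 and 2 of 5, which were *Lef1* and *Dkk1* on each day, beside 8.02% and 8.59%. AP3 against the KD-labelled line gave 2 of 8 and 1 of 5, beside 18.4% and 11.3%. A gene that is low in 1 library enters such a count only if the other library is high, so these counts describe the genes kept and add no support.

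The rest of the pathway was read from lists ordered by role, with 90 of 91 listed genes found. Past the threshold at D3 were 44 of the 90 in WT, 39 in the KD-labelled line and 47 in AP3, beside 30.7%, 30.2% and 31.0% of all entries. Many of these genes are near 0, and among those with at least 1 RPKM on 1 of the 2 days the numbers were 18 of 56, 18 of 56 and 23 of 55, beside 23.0%, 22.3% and 24.3%. Of the other 17 ligand genes, 4 reached 1 RPKM in any library. *Wnt7b* had the pattern of *Wnt5a*, with 2.20, 1.46 and 1.43 RPKM in WT, KD-labelled and AP3 ESCs and 0.542, 0.393 and 0.406 RPKM in EBs. *Ror2*, a receptor for WNT5A, was at 4.51, 5.26 and 5.82 RPKM in ESCs and at 2.36, 2.19 and 1.71 RPKM in EBs, below all ESC libraries.

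Receptors went in both directions, with 5 higher and 4 lower of 15 in WT, 3 and 3 in the KD-labelled line, and 5 and 3 in AP3, where 30.7%, 30.2% and 31.0% of all entries passed the threshold in either direction. *Fzd7* was at 18.1 to 19.5 RPKM in ESCs and 34.4 to 38.7 RPKM in EBs, while *Fzd5* was at 15.0 to 20.6 RPKM in ESCs and 7.53 to 8.73 RPKM in EBs. Secreted antagonists other than *Dkk1* were also split, with 5 higher and 5 lower of 14 in WT, 4 and 7 in the KD-labelled line, and 6 and 4 in AP3, beside the same shares of all entries, but only 7 of the 14 reached 1 RPKM in any library. *Sfrp2* rose with *Dkk1*, from 5.81, 8.89 and 6.11 RPKM to 15.1, 14.8 and 16.5 RPKM, and *Dkk3* fell from 6.36, 4.62 and 6.95 RPKM to 1.83, 1.02 and 1.60 RPKM. Few of the signal transducers inside the cell passed the threshold. Of 14 genes, 1 was higher and 1 lower in WT, and 1 was lower in each of the other lines. *Ctnnb1*, which encodes beta-catenin, was at 211 to 293 RPKM in all 6 libraries.

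**Figure D5:**
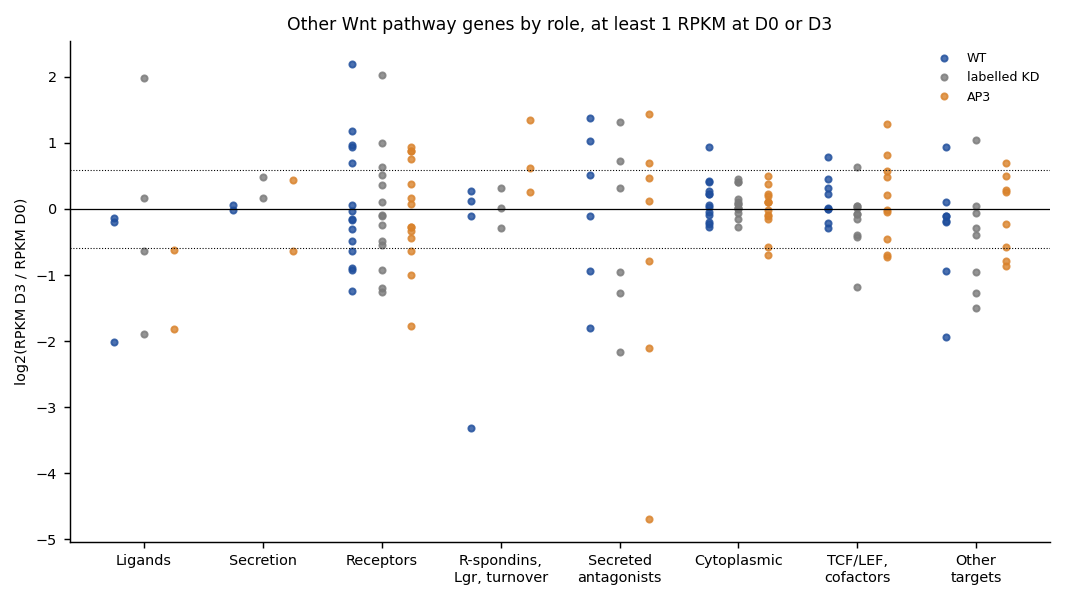
Log2 ratio of RPKM at D3 over D0 for Wnt pathway genes outside the 10, grouped by role, with 1 point per gene and ESC line for genes of at least 1 RPKM on 1 of the 2 days; dotted lines mark 1.5-fold. Most cytoplasmic genes lie between the dotted lines, and receptors and secreted antagonists spread to both sides.

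Of the remaining TCF factors, *Tcf7l1*, which mainly represses Wnt targets in ESCs, was lower in AP3 ESCs (13.3 RPKM) than in WT and KD-labelled ESCs (20.0 and 17.9 RPKM) and highest in AP3 EBs (32.6 RPKM, against 24.7 and 18.5 RPKM). It therefore had its lowest and highest values in the same libraries as *Lef1*, with a D3 to D0 change in AP3 of 1.29 on the log2 scale beside 4.09 for *Lef1*. *Myc*, another target gene, fell from 6.50 to 1.70 RPKM in WT and from 6.35 to 2.25 RPKM in the KD-labelled line, and was at 6.59 and 5.61 RPKM in AP3. *Notum*, which encodes a secreted enzyme that inactivates Wnt proteins, stood highest in the KD-labelled ESCs, at 4.96 RPKM against 2.02 RPKM in WT and 1.53 RPKM in AP3, the same order as *Lef1* at D0.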

How the data were processed

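RNA was selected with oligo(dT), made into TruSeq libraries and sequenced single-end in 6 conditions of 1 library each. Per the labels and the study's methods, reads were aligned to mm9 with TopHat and Bowtie 0.12.7, allowing 2 mismatches and 20 locations, and Cufflinks 1.3.0 gave the RPKM values that the authors deposited per gene entry. The deposited table also holds log2 ratios between lines, which were not used. A pseudocount of 0.001 RPKM was added to each value before the log2 ratio of 2 libraries was taken, and a ratio past 1.5-fold was called. No test across libraries was made. With 1 library per condition, a fit of day with the line as a term, which would take the 3 lines as replicates, was left out. Relative depths come from the steps between values under 0.1 RPKM, searched over ratios under 2-fold, and absolute depths from 2646 genes with 1 annotated transcript over 1.5 kb, where values are near multiples of 1 read. Reads per gene used these depths and the coding transcript in GENCODE for NCBIM37 whose span best overlapped the entry, the longest on ties. For *Tcf7* this is also the transcript used in the alternative with the shortest coding transcript. Ratio intervals are 95% exact (Clopper-Pearson), and cover counting error only, since no molecular identifiers mark PCR copies. Alternatives were pseudocounts of 0.1 and 1, a filter at 1 RPKM, centring on the median ratio, a 2-fold threshold and summing entries that share a symbol.

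Named genes are the 10 members, *H2afz*, the 3 genes most like *Axin2* (log2 of RPKM + 0.1), marker genes, and other pathway genes of at least 1 RPKM that passed 1.5-fold with pseudocounts of 0.001 and 1, at most 5 per list and comparison. *Lgr4* and *Ctnnb1* were added after their values were seen. The members and lists were chosen with earlier results of these data known. *Nanog*, *Tfap2c* and *Amer1* were listed but not analysed here. Scripts were tested on simulated data. The scripts ran in Python 3.11.15 with scipy 1.17.1, numpy 2.4.6 and pandas 2.3.3, and figures were drawn with matplotlib 3.10.9.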

Additional observations from a re-analysis of the deposited data

Results flagged for a closer look

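*Lef1* was singled out because AP3 lay on opposite sides of WT on the 2 days. The log2 difference of AP3 from WT was -1.98 in ESCs (95% counting interval, -2.79 to -1.18) and 1.47 in EBs (1.1 to 1.84). Each value compares 1 library with 1 library, and the difference between the days was not tested. The low value rests on an estimated 20 reads in AP3 ESCs, against 49 in WT ESCs, 238 in AP3 EBs and 86 in WT EBs.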

How the results depend on the processing

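Adding 1 RPKM lowered the number of the 10 genes past 1.5-fold to 4 for D3 against D0 in WT and 5 in AP3, to 1 for AP3 against WT on each day, to 2 for KD-labelled against WT at D3, and to 1 for AP3 against KD-labelled on each day, while the share of all entries past it was, in the same order, 9.72%, 10.3%, 4.78% and 3.11%, 2.38%, and 6.92% and 3.74%. With a pseudocount of 0.1, AP3 against WT at D0 gave 2, beside 16.5% of all entries. Keeping genes of at least 1 RPKM gave 5 of 7 for D3 against D0 in AP3, 2 of 7 and 1 of 5 for AP3 against WT at D0 and D3, 2 of 5 for KD-labelled against WT at D3, and 1 of 5 for AP3 against KD-labelled at D3, beside 24.3%, 13.9%, 10.2%, 8.59% and 11.3% of the entries kept. A 2-fold threshold gave 4 for D3 against D0 in WT and 5 in AP3, 1 for AP3 against WT at D0, 2 for KD-labelled against WT at D3 and 1 for AP3 against KD-labelled at D0, beside 19.8%, 19.7%, 15.2%, 13.1% and 15.9% of all entries. These settings count fewer genes by construction, since they damp, drop or raise the bar for low levels. Centring and summing moved no count by more than 1.5 times; centring subtracted medians of -0.033 to 0.048 from the log2 ratios and took *Lef1* in the KD-labelled line under the threshold at D3. Of 421 single values recomputed under an alternative, none that had passed the threshold changed sign, and *Lgr5* in AP3 against KD-labelled ESCs went from 0.01 to -0.03 under centring. For 20 of the 421 the value lay outside the 95% counting interval of the reported one. Reads re-estimated with the shortest coding transcript, an alternative added after the data were seen, changed whether an interval spans no change in 2 of 90 ratios. Depth limits *Wnt3*, *Lgr5* and, at D3, *Sp5* and *Cdx1*, which rest on an estimated 5 to 32 reads per library. The D0 and D3 libraries of a line form a pair, and a paired fit of day over the 3 lines was left out by choice, since it would take the lines as replicates.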

Other observations

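Outside the 10 genes and the genes described with them, *Wls*, which carries Wnt proteins to the cell surface, was at 7.90 RPKM in AP3 ESCs and at 4.14 to 5.08 RPKM in the other 5 libraries. *Wnt4* was at 0.292 RPKM in AP3 ESCs, below its other 5 libraries, which ran from 0.689 to 1.19 RPKM. *Frzb*, a secreted Wnt antagonist, was at 1.03 RPKM in AP3 ESCs and at 0.0388 RPKM in AP3 EBs, its highest and its lowest value. *Tnks*, whose product marks Axin proteins for breakdown, was at 19.3 RPKM in KD-labelled EBs against 12.0 RPKM in WT EBs and 10.0 RPKM in AP3 EBs. *Ror1* was at 0.242, 0.278 and 0.142 RPKM in WT, KD-labelled and AP3 ESCs and at 1.11, 1.13 and 0.599 RPKM in EBs. It thus rose in each line, while *Ror2* fell in each, for example from 5.26 to 2.19 RPKM in the KD-labelled line. Each of these is a single library, with no replicate check.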
